A study of Mus musculus with 12 samples.

Results

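The collagens were taken as every gene whose symbol is Col, a type number, the letter a and a chain number. This rule found 44 collagen genes among the 32285 genes counted, and it left aside the other symbols among the 52 that start with Col. By textbook family, 11 of the 44 encode fibrillar chains, 6 encode the type IV chains of basement membranes, and 27 encode other collagens. Tumours of the mouse line SCC35, in a series titled on melanoma rejection, were dissociated, labelled with hashtag antibodies, sorted for live cells and sequenced with a 5′ single-cell kit. Each hashtag, called a sample here, stood for 1 line, day and letter on a deposited sheet. The control group held 21 samples of the lines labelled SCC35 Mif KO control 15 and SCC35 Mif KO control 18. The Mif KO group held 21 samples of the lines labelled SCC35 Mif KO 19 and SCC35 Mif KO 24, with Mif, the gene of a macrophage cytokine, targeted. The samples were labelled day 0 (7), day 6 (11), day 10 (12) or day 16 (12). Each group therefore rested on 2 lines. What the controls carry, whether a line is a clone, what a day 0 sample was and whether the letters are separate mice are nowhere stated in the sources read here. The p-values therefore measure the spread between these samples of these lines, which may be technical. Another 3 samples, called WT on the sheet, are in no labelled group and entered no test.

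Collagens are mostly secreted proteins wound from several chains, and the chains of a molecule often come from different genes. Fibrillar types I, III and V bundle into the cables that give connective tissue its strength. Type IV makes the sheet-like network of basement membranes under epithelia and around vessels. The other families decorate fibrils, link them to basement membranes, form beaded filaments around cells, or span the cell membrane. In tumours, fibroblasts are the best known source of fibrillar collagen, and endothelial cells of type IV.

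Each sample's raw counts of unique molecules (UMIs) were summed within a cell class and divided by all its UMIs, which gives a level in CPM, the usual scaling of counts to sequencing depth. These levels are not scaled to gene length. Line cells were cells with no Ptprc UMI and at most 1 Tyrobp UMI in clusters not named for another cell type, with a Ptprc level of at most 10% of that of macrophage/monocyte-like cells. A name needed at least 3 markers of a type that were at least 2-fold higher in the cluster and seen in 10% of its cells. Of the clusters of line cells, 14 had 1 such endothelial and 2 plasmacytoid dendritic markers, 3 and 5 had 1 endothelial marker each, and 1 and 9 had 1 plasmacytoid dendritic marker each. Cluster 10, with 3283 cells, 91.9% of them from the library of line 24, had 0 such markers and was left out by its Ptprc level. There were 57420 line cells, with 219 to 3234 cells and 1906110 to 25890206 UMIs per sample. Fibroblast-like cells numbered 2146 in the 33 samples with at least 20 of them, and 368 endothelial-like cells were found in 35 samples. Mif in line cells lay between 1777 and 3113 CPM in the controls and between 42.8 and 717 in the Mif KO samples, without overlap. The melanocytic markers Tyr, Mlana, Pmel, Dct and Tyrp1 were at or near 0 in the line cells: Tyr had no UMI and Mlana reached 1.53 CPM. Of the other 2 markers of that list, Mitf lay between 6.66 and 22.7 CPM in the controls and between 6.97 and 19.8 in the Mif KO samples, and Sox10 reached 4.71. The 6 libraries held 151385933 to 239699029 gene UMIs each, and of 94833 barcodes of assigned cells 5468 occurred in more than 1 library. Samples with the letter C were sequenced in 2 mixed libraries, and the others in a library of their own line.

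Line cells, fibroblast-like cells and endothelial-like cells carried different collagens. In fibroblast-like cells the 44 genes summed to 24846 ± 5050 CPM (SD, n = 33). In line cells they summed to 1404 ± 490 CPM (SD, n = 42), with the lowest sample at 621 and the highest at 2575. Fibrillar chains made up 73.0% of the collagen UMIs of fibroblast-like cells and 48.5% of those of line cells. Type IV chains made up 75.2% of the collagen UMIs of endothelial-like cells, 11.3% in line cells and 2.31% in fibroblast-like cells. The classes came from clusters of the same cells, so these levels are a description and were not tested against each other. Collagen genes were left out of the clustering.

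In fibroblast-like cells the type I chains led. Col1a1 stood at 7345 ± 1913 CPM and Col1a2 at 4386 ± 1018 (SD, n = 33). Col3a1, the single chain of type III, followed at 4153 ± 1654 CPM. Next came Col12a1, which coats fibrils, at 1721 ± 844 CPM, then the type VI chains Col6a3 at 1184 ± 365 and Col6a2 at 1100 ± 316. Neighbours in this order, Col1a2 and Col3a1 and likewise Col6a3 and Col6a2, differed by less than their SDs. Type VI forms beaded filaments between cells and fibrils, and its chains Col6a1, Col6a2 and Col6a3 had nearly the same level here.

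Endothelial-like cells showed the basement membrane set. In the 20 samples with at least 10 such cells, Col4a1 lay at 1842 ± 610 CPM and its partner chain Col4a2 at 1170 ± 416 (SD). Col18a1 and Col15a1, collagens of the basement membrane zone, stood at 337 ± 96.3 and 284 ± 122 CPM. Col8a1, a network collagen of vessel walls, followed at 70.2 ± 59.7. Col3a1, at 52.7 ± 77.2, was not above the background of immune cells described below: its T-cell-like mean was 44.9, and at 1000 UMIs per cell it was seen in 3.77% of endothelial-like and 4.65% of T-cell-like cells. Col13a1, a transmembrane collagen, reached 22.1 CPM over all endothelial-like cells and 0.00831 over all line cells.

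Line cells showed a mixture of network and fibrillar collagens. By mean over samples Col8a1 was highest, at 186 ± 43.9 CPM (SD, n = 42), with a range of 121 to 339. Col1a1 followed at 179 ± 223, with a lowest sample of 4.34 and a highest of 801. Col3a1 stood at 167 ± 146, Col5a2 at 150 ± 60.9 and Col18a1 at 150 ± 49.1, so the first 5 did not differ beyond their SDs. Over all line cells pooled the order of the first 2 was the reverse, with Col1a1 at 242 CPM and Col8a1 at 191. Col6a1 at 104 ± 53.4, Col1a2 at 87.8 ± 44.2, Col4a1 at 82.8 ± 31.3, Col6a3 at 63.5 ± 47.1 and Col5a1 at 52.7 ± 23.6 completed the 10 highest. These 10 genes held 87.8% of the 685097 collagen UMIs of line cells. The other end of the list was nearly empty: 24 of the 44 collagens lay under 1 CPM over all line cells, and Col19a1, Col26a1 and Col6a5 had no UMI there.

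**Figure D1:**
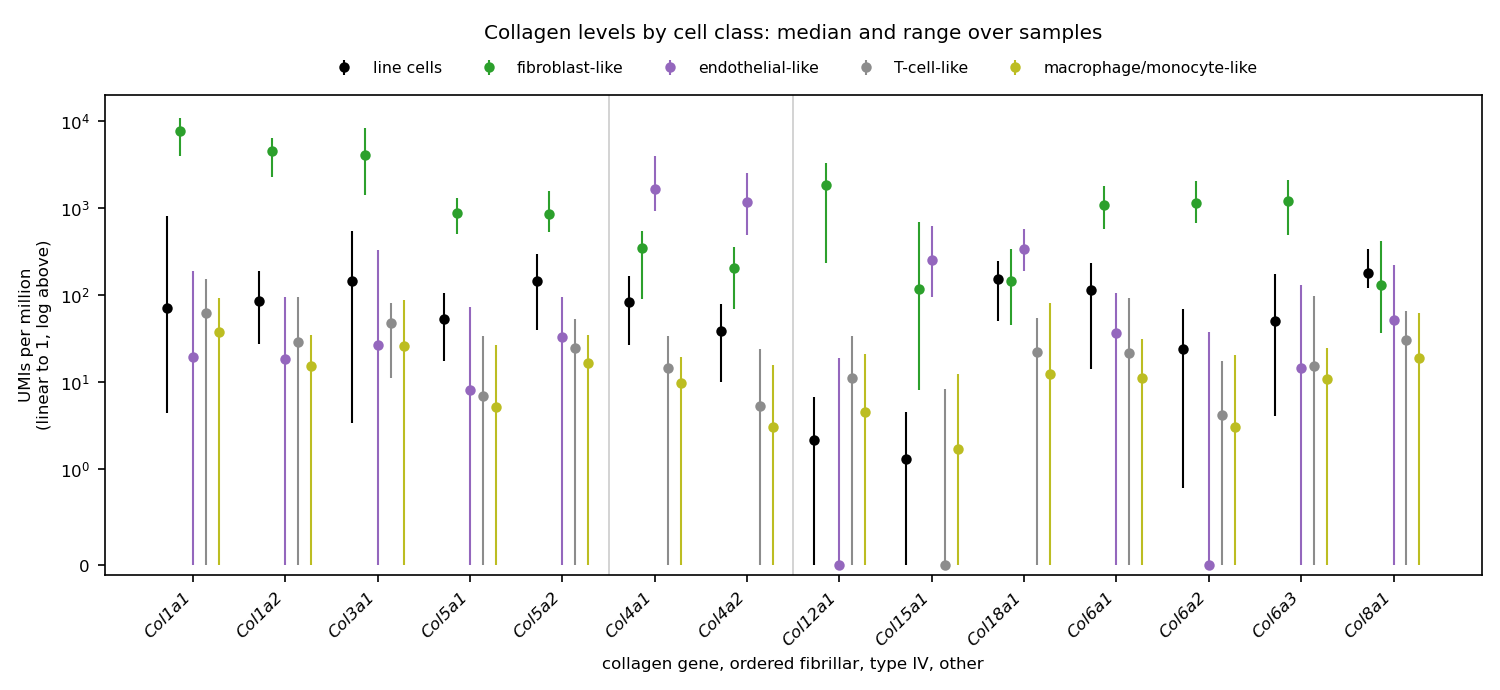
Levels of 14 collagens in 5 cell classes, in CPM on an axis that is linear to 1 and logarithmic above, with points for the median over samples and bars from the lowest to the highest sample. Col1a1 and Col3a1 are highest in fibroblast-like cells (means 7345 and 4153), and Col4a1 and Col4a2 in endothelial-like cells (1842 and 1170).

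Immune cells, which should lack fibrillar collagens, gave the level that free RNA and mixed droplets leave. Day 0 held 3 T-cell-like cells, so the levels below come from days 6, 10 and 16 and give no background for day 0. The 44 genes summed to 325 ± 96.3 CPM in T-cell-like cells (n = 33) and 204 ± 72.0 in macrophage/monocyte-like cells (SD, n = 35). Per cell, Col1a1 had 0.0854 UMIs in T-cell-like and 0.105 in macrophage/monocyte-like cells, against 2.03 in line cells and 53.4 in fibroblast-like cells. The margin was small in line 15 at day 6, with 0.196 Col1a1 UMIs per line cell. T-cell-like and macrophage/monocyte-like cells of that line and day had 0.145 and 0.0759. A UMI of Col1a1 was seen in 96.3% of fibroblast-like cells, 7.68% of T-cell-like cells (median 1325 UMIs per cell) and 13.8% of line 15 cells. After thinning every cell to 1000 UMIs these shares were 90.3%, 5.04% and 3.27%, so the share in line 15 was at or below the background. At the same depth line 24 had 5.21%, near the T-cell-like share, line 18 had 16.9% and line 19 had 30.2%. Pooled over days and by this share, Col1a1 stood above the immune background in lines 18 and 19. By this share it was not distinguishable from it in lines 15 and 24, but the shares of line cells include day 0. In line 24, 3127 of 11017 line cells were of day 0, where Col1a1 had 0.0521 UMIs per cell. T-cell-like cells held fewer UMIs than line cells (medians 1325 and 7057), so shares, CPM and UMIs per cell are different measures. Per cell, line 24 had 0.431, 0.485 and 0.317 at days 6, 10 and 16, against 0.0451, 0.0534 and 0.047 in its T-cell-like cells. Line 15 had 0.252 and 0.566 at days 10 and 16, against 0.0619 and 0.0983. The means of Col3a1, Col6a1, Col6a3 and Col8a1 were 44.9, 23.8, 17.3 and 30.7 CPM in T-cell-like cells, below the line-cell means of 167, 104, 63.5 and 186.

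The collagens of line cells changed with day. Summed over all 44 genes, line 15 went from 629 CPM at day 0 (mean, n = 2) to 1275 at day 16 (n = 3). Line 18 went from 809 (n = 1) to 2074. Line 19 went from 1186 (n = 2) to 1956 at day 10 and 1928 at day 16, and line 24 from 1076 (n = 2) to 2084 and 1576. Each line was thus higher at day 16 than at day 0, and lines 19 and 24 had their highest mean at day 10. The make-up shifted too: type IV chains fell from 25.8% of the collagen UMIs of line 19 at day 0 to 5.404% at day 16, and from 29.1% to 12.1% in line 15.

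From day 0 to day 6, edgeR's quasi-likelihood test with Benjamini-Hochberg adjustment over all genes called 10 collagens higher and 2 lower of the 24 that passed the count filter. Of all 12484 genes tested, 24% were called higher and 26.5% lower. The median log2 fold change of the 24 collagens was 0.29, against -0.01 for all genes. By family, 5 of 9 fibrillar chains rose and 2 fell, none of 3 type IV chains was called, and 5 of 12 other collagens rose. In the 4 libraries of 1 line each alone, where day 0 was sequenced, 12 of 24 were called, beside 22% of all genes called higher and 23.4% lower.

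All 3 main type VI chains rose by day 6. Col6a1 lay between 14 and 61.0 CPM at day 0 (median 17.3, n = 7) and between 44.2 and 112 at day 6 (median 69.9, n = 11), and 8 of the 11 day 6 samples were above every day 0 sample. Its log2 fold change was 1.80 ± 0.21 (SE, adjusted p = 2.57e-09). Col6a2 rose by 2.27 ± 0.33 and Col6a3 by 1.65 ± 0.22 (adjusted p = 5.12e-07 and 1.03e-07). All 3 were higher at day 6 than at day 0 in all 4 lines. The day 0 means of Col6a3 were 10.9, 19.98, 4.45 and 12.9 CPM in lines 15, 18, 19 and 24. At day 6 they were 28.7, 20.9, 16.4 and 54.9, and line 19 was under the T-cell-like mean of 17.3 CPM. Per cell, line 19 had 0.186 Col6a3 UMIs at day 6, against 0.0158 in its T-cell-like cells. Col6a1 had day 0 means of 15.5, 61.0, 16.4 and 21.9, and 55.3 to 100.5 at day 6, beside 23.8 in T-cell-like cells.

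Other non-fibrillar collagens rose as well. Col18a1, whose fragment endostatin is known to act on vessels, went from 50.4 to 141 CPM (median 75.0) to 84.5 to 211 (median 120), a log2 fold change of 0.79 ± 0.09 (adjusted p = 2.72e-09). Col16a1, a fibril-associated collagen, rose by 1.08 ± 0.19 (adjusted p = 1.06e-05), and 8 of 11 day 6 samples were above every day 0 sample. Col8a1, the collagen with the highest mean, had 0.05 ± 0.09 (adjusted p = 0.668) and, from day 6 to day 16, -0.14 ± 0.07 (adjusted p = 0.135).

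Of the fibrillar chains, Col1a1 had levels of 4.34 to 56.5 at day 0 (median 8.27) and 11.1 to 305 at day 6 (median 58.4). The ranges overlapped, and Col1a1 was higher at day 6 than at day 0 in all 4 lines, with a log2 fold change of 2.23 ± 0.42 (adjusted p = 2.47e-05). Its day 0 means were 5.25, 34.3, 48.1 and 7.34 in lines 15, 18, 19 and 24. At day 6 lines 15 and 18, at 17.8 and 41.0, were under the T-cell-like mean of 58.2 CPM over all lines and days. Per cell they had 0.196 and 0.360 Col1a1 UMIs, against 0.145 and 0.0147 in T-cell-like cells of the same line and day. Col3a1 went from 3.38 to 46.7 (median 17.3) to 14.4 to 345 (median 64.5), a change of 2.07 ± 0.32 (adjusted p = 1.14e-06). Its day 0 means were 4.40, 43.5, 15.3 and 43.1 in the same order of lines. At day 6 line 15, at 20.1, was under the T-cell-like mean of 44.9 CPM, and line 18 was level with it at 45.3. Per cell these lines had 0.233 and 0.395 Col3a1 UMIs, against 0.0458 and 0.103 in their T-cell-like cells of day 6. Col5a3, a minor type V chain, rose by 2.05 ± 0.38 (adjusted p = 2.23e-05). All 7 day 0 samples of Col5a3 lay at or under 5.12 CPM, and 7 of 11 day 6 samples lay above that.

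Not every fibrillar chain followed. Col11a1, a chain known from cartilage, fell by 1.89 on the log2 scale (SE 0.28, adjusted p = 6.23e-07), from 1.54 to 19.96 CPM at day 0 (median 11.9) to 0.149 to 5.84 at day 6 (median 0.846). Col5a2, a main type V chain, fell by 0.73 (SE 0.14, adjusted p = 4.94e-05), and its day means were lower at day 6 in all 4 lines. Its other main partner, Col5a1, rose by 0.44 ± 0.15 (adjusted p = 0.0154), and without Mif KO line 19 or 24 that call was lost (0.37 and 0.38, adjusted p = 0.136 and 0.0545). Col1a2, the partner of Col1a1, had a log2 fold change of -0.39 ± 0.18 (adjusted p = 0.0677) and was lower at day 6 in all 4 lines. With all cells of the Ptprc and Tyrobp gate, fibroblast-like ones included, Col1a2 turned to 1.36 (adjusted p = 2e-05). Under that gate Col1a1 had 3.50, Col3a1 3.34, Col5a3 3.17, Col6a3 2.54, Col5a1 1.23 and Col5a2 -0.36. Without Mif KO line 19 or 24, Col1a2 had -0.55 and -0.51 (adjusted p = 0.0387 and 0.0436).

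**Figure D2:**
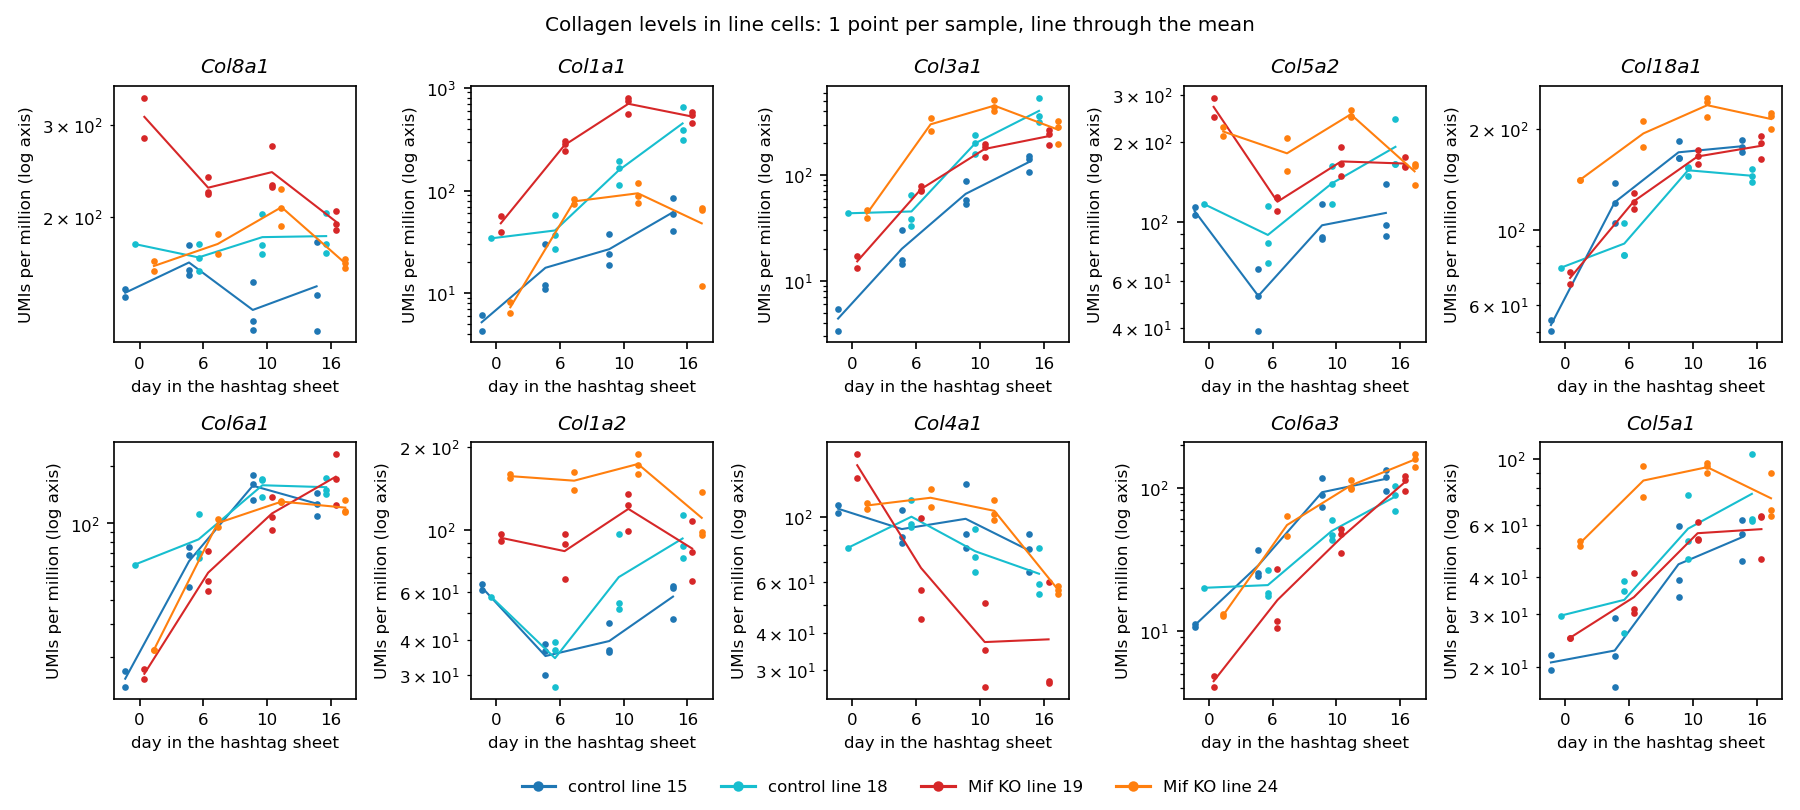
Levels of the 10 highest collagens in line cells by day, in CPM on a logarithmic axis, with 1 point per sample, colours for the 4 lines and lines through the mean of each line. Col6a3 is higher at day 6 than at day 0 and at day 16 than at day 6 in all 4 lines (medians 11.2, 25.4 and 116), whereas Col8a1 stays between 121 and 339 in every sample.

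From day 6 to day 16, edgeR's quasi-likelihood test called 15 collagens higher and 2 lower of 24 tested, while 21.6% of all genes were called higher and 17.6% lower. The median log2 fold change was 0.64 for the collagens and 0.02 for all genes. Fibrillar chains rose in 8 of 9 cases, other collagens in 7 of 12, and type IV chains fell in 2 of 3. When all cells of the Ptprc and Tyrobp gate were kept, fibroblast-like ones included, 7 collagens were higher and 5 lower of 27, beside 17.7% and 15.5% of all genes. In the 4 libraries of 1 line each alone, 11 were higher and 2 lower of 24, beside 14.1% and 12.6% of all genes.

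Col6a3 rose without overlap. It lay between 10.4 and 63.6 CPM at day 6 (median 25.4, n = 11) and between 69.3 and 172 at day 16 (median 116, n = 12), so all 12 later samples were above all 11 earlier ones. The log2 fold change was 2.09 ± 0.16 (adjusted p = 1.06e-11). Col6a1 rose by 0.98 ± 0.16 (adjusted p = 1.11e-05), from a median of 69.9 to 137, with 11 of 12 day 16 samples above every day 6 sample. Col6a2 rose by 1.34 ± 0.22 (adjusted p = 1.26e-05). All 3 type VI chains were higher at day 16 than at day 6 in all 4 lines. With all cells of the gate the call of Col6a2 was lost (0.10, adjusted p = 0.777), and Col6a3 and Col6a1 had 0.93 and 0.58.

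Col3a1 rose by 1.89 ± 0.24 (adjusted p = 3.45e-07), to a lowest sample of 108, a median of 254 and a highest of 540 at day 16. Its mean rose in lines 15, 18 and 19 and was lower at day 16 than at day 6 in line 24 (269 against 302). Col1a1 rose by 1.5 ± 0.31 (adjusted p = 0.000323), and again line 24 went the other way, from 78.6 to 48.0. In line 18 Col1a1 climbed from 41.0 at day 6 to 158 at day 10 and 450 at day 16 (means, n = 3 each). Its 3 samples at day 16 were 308, 387 and 654, all above the 3 at day 10 (113, 167 and 192). Without control line 18, Col1a1 had 0.81 (adjusted p = 0.045). With all cells of the gate both calls were lost, with Col3a1 at 0.30 and Col1a1 at 0.18 (adjusted p = 0.327 and 0.623).

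The basement membrane chains Col4a1 and Col4a2 fell from day 6 to day 16. Col4a2 went from 20.1 to 68.7 CPM (median 48.1) to 9.92 to 39.2 (median 25.7), a fall of 0.96 on the log2 scale (SE 0.17, adjusted p = 3.51e-05). Col4a1 fell by 0.71 (SE 0.17, adjusted p = 0.00103). Both were lower at day 16 than at day 6 in all 4 lines, although their ranges overlapped. Col4a5, the other type IV chain tested, had a log2 fold change of 0.20 ± 0.11 (adjusted p = 0.156).

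A few of the largest fold changes rested on 1 line or lost their call without 1 line. Col2a1, the main collagen of cartilage, and Col9a1, which coats cartilage fibrils, had log2 fold changes of 2.88 ± 0.60 and 2.13 ± 0.49 (adjusted p = 0.00033 and 0.00121). In line 24 Col2a1 was 3.32, 8.58 and 22.6 CPM at day 16 and 2.62 and 0 at day 6. In every sample of the other 3 lines it was at or under 0.128 CPM. DESeq2 gave 1.17 for Col2a1 and 0.64 for Col9a1 (adjusted p = 0.287 and 0.563), so both calls were lost there. In the 4 libraries of 1 line each alone they had 0.76 and 0.89 (adjusted p = 0.339 and 0.243). Col23a1, a transmembrane collagen, rose by 1.79 ± 0.45 (adjusted p = 0.00186), and without line 15 its value was 0.77 (adjusted p = 0.106). Its mean was higher at day 16 than at day 6 in all 4 lines, with 0.610 and 5.97 CPM in line 15 and 2.18 and 6.54 in line 24. With all cells of the gate Col23a1 had 0.27, Col9a1 0.55 and Col2a1 1.47 (adjusted p = 0.459, 0.455 and 0.0468).

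**Figure D3:**
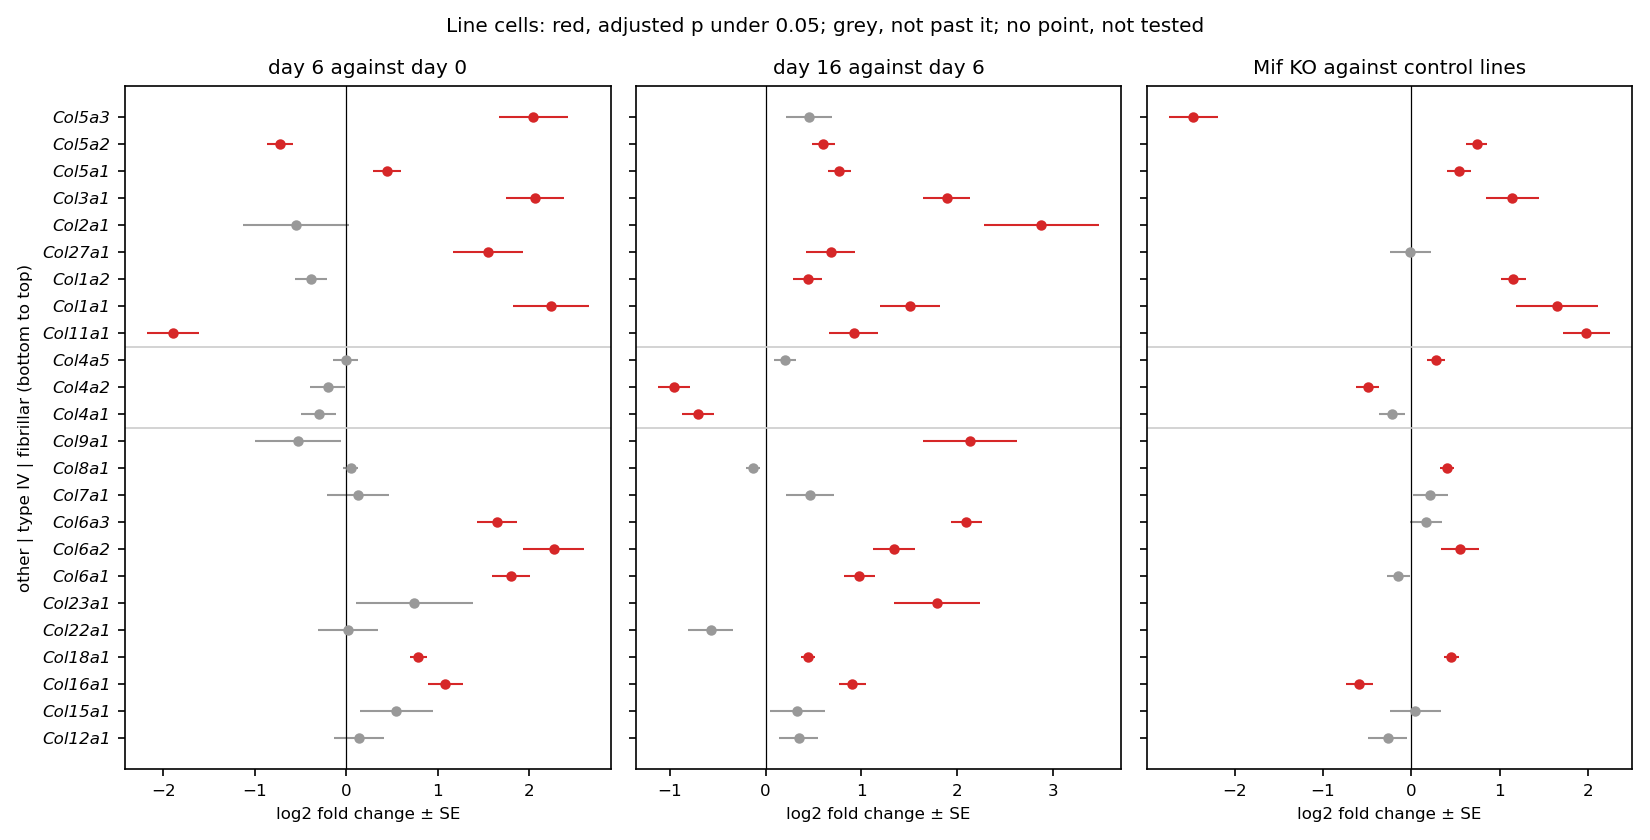
Log2 fold changes of the collagens in line cells for day 6 against day 0, day 16 against day 6 and Mif KO against control, with bars of 1 SE and red points for an adjusted p under 0.05. Type VI chains lie to the right of 0 in both day comparisons (Col6a3 1.65 and 2.09), and Col4a1 and Col4a2 lie to the left from day 6 to day 16 (-0.71 and -0.96).

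Markers of fibroblasts and the depth per cell moved with day as well. Over all line cells Col3a1 stood at 0.580% of its fibroblast-like level at day 0 and at 6.51% at day 16, Col1a1 at 0.235% and 4.68%, and Col6a3 at 0.914% and 10.1%. The fibroblast gene Dcn stood at 0.0291% and 0.130%, Lum at 0.0454% and 0.226%, and the fibroblast collagen Col12a1 at 0.121% and 0.179%. Of the other fibroblast markers, Dpt went from 0.460% to 3.75% and Serping1 from 0.0656% to 0.918%. Mfap5 went from 0.269% to 0.335% and Pdgfra from 5.09% to 7.92%. Clec3b went from 0.156% to 0.616%, Pi16 from 0.265% to 0.928% and Fbln1 from 0.00963% to 0.0575%. The 10 fibroblast markers summed to 367 to 458.5 CPM in line cells at day 0, 382 to 641 at day 6 and 373 to 741 at day 16. Of the 7 that were tested, 3 rose from day 0 to day 6 and 4 from day 6 to day 16. Gsn, which line cells had at 163% of the fibroblast-like level at day 16, is in that sum. Day 0 held 35 fibroblast-like cells, 29 of them in line 24, and day 6 held 928. With all cells of the gate, 20 of 27 collagens were called from day 0 to day 6, beside 27.1% of all genes called higher and 27.4% lower. The median number of UMIs per line cell went from 17280 at day 0 to 8055 at day 16 in line 15 and from 6146 to 5064 in line 24, and the part of depth and of fibroblast RNA in the results was not tested.

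Partner chains of type I and type VI kept a narrow ratio in fibroblast-like cells and a wide one in line cells. Col1a1 had 1.69 ± 0.26 UMIs for each Col1a2 UMI in fibroblast-like cells (SD, n = 33), with a range of 1.15 to 2.05. In line cells the same ratio ran from 0.0402 to 8.27. Its means at day 0 were 0.0847, 0.598, 0.515 and 0.0470 for lines 15, 18, 19 and 24. At day 16 it was 1.087, 4.73, 6.34 and 0.423. Lines 18 and 19 passed beyond the fibroblast-like range, and line 24 stayed under it on every day. The Col1a1 level behind the ratio was under the T-cell-like mean of 58.2 CPM in line 15 at days 6 and 10 (17.8 and 26.9), in line 18 at day 6 (41.0) and in line 24 at day 16 (48.0). It was above it in line 24 at days 6 and 10 (78.6 and 94.2), and no background was measured for day 0. In UMIs per cell, Col1a1 was above the T-cell-like cells of the same line and day in all these cases. The smallest margin was in line 15 at day 6 (0.196 against 0.145). Col6a1 had 0.951 ± 0.121 UMIs for each Col6a2 UMI in fibroblast-like cells and 2.24 to 17.4 in line cells, with line 24 lowest on each day (means of 2.50 to 3.17).

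The type IV ratio varied less. Col4a1 had 2.25 ± 0.36 UMIs for each Col4a2 UMI in line cells (n = 42), with a range of 1.55 to 3.16, against 1.5 ± 0.25 in fibroblast-like cells (n = 33) and 1.61 ± 0.22 in endothelial-like cells. The level of Col4a1 in the same line cells ran from 26.2 to 164.5 CPM. These ratios compare UMIs of different genes and are not molar ratios of the chains.

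**Figure D4:**
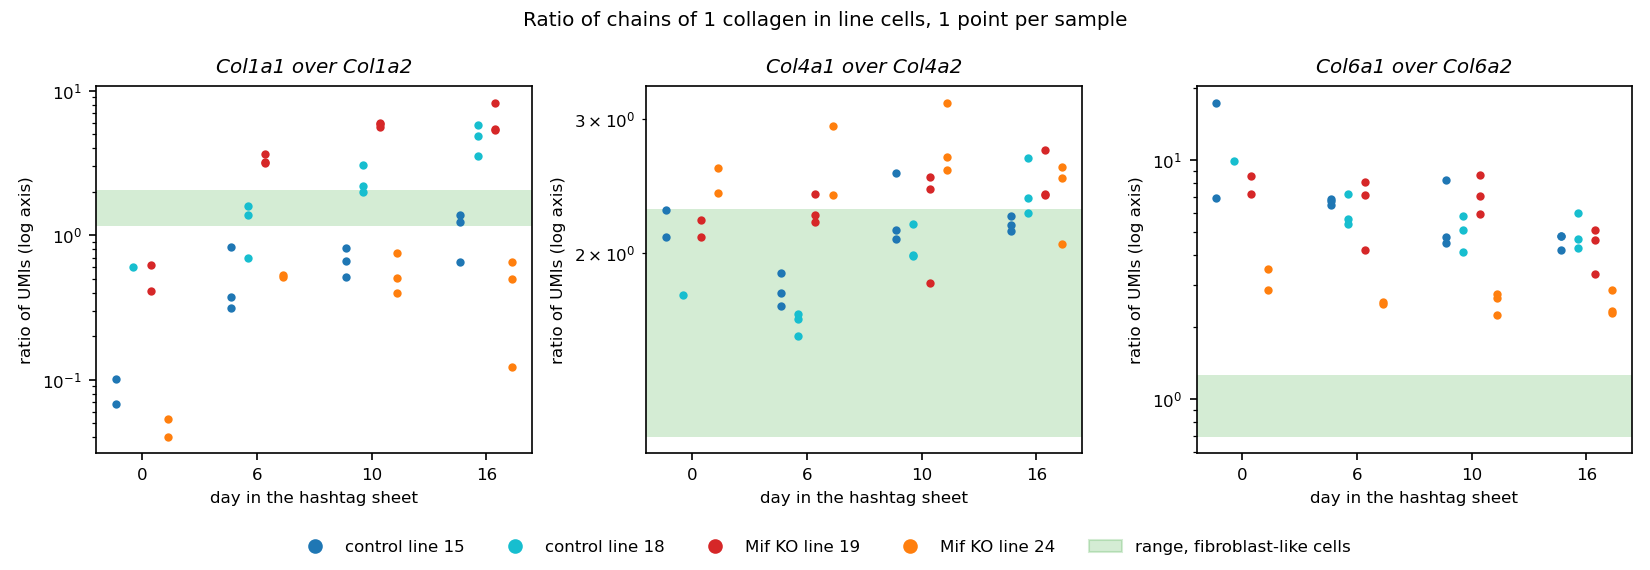
Ratio of UMIs of Col1a1 to Col1a2, Col4a1 to Col4a2 and Col6a1 to Col6a2 in line cells by day, on a logarithmic axis, with 1 point per sample, colours for the lines and a green band for the range in fibroblast-like cells. The type I ratio spans 0.0402 to 8.27 against a band of 1.15 to 2.05, and the type IV ratio spans 1.55 to 3.16.

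The starts of Col4a1 and Col4a2 are 21 bases apart on opposite strands of mouse chromosome 8. Any part of gene position in the ratios was not tested. The 22 bases from 1 start to the other are shown (RefSeq, GRCm38.p6, chr8:11312805-11312826, plus strand):
Col4a1 and Col4a2: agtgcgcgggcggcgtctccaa

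RefSeq windows of promoters on GRCm38.p6, the build mm10 that the submitters' processing notes name, were matched for 35 of the 44 collagens. The 250 bases before the start are printed 5′ to 3′ on the gene's strand for 4 collagens called higher from day 6 to day 16: Col1a2 (chr6:4505368-4505617, plus), Col3a1 (chr1:45311288-45311537, plus), Col6a1 (chr10:76726045-76726294, minus) and Col6a3 (chr1:90843972-90844221, minus). The Col1a2 call was weak: its log2 fold change was 0.44 ± 0.15 (adjusted p = 0.0226). It was lost without control line 18 (0.11, adjusted p = 0.643), without control line 15 (0.37, adjusted p = 0.13), in the libraries of 1 line each alone (0.38, adjusted p = 0.117) and when a hashtag had to be at least 3 times the next one (0.31, adjusted p = 0.0639). With all cells of the gate Col1a2 had -0.25 (adjusted p = 0.367). Capitals mark matches, on either strand, to CCAAT, to the GC box GGGCGG and to the TATA box TATAAA:
Col1a2: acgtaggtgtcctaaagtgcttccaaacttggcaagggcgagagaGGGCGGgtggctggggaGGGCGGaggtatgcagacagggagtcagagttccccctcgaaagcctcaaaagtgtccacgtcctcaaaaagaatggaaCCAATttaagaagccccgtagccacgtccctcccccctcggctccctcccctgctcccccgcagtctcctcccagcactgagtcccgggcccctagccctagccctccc
Col3a1: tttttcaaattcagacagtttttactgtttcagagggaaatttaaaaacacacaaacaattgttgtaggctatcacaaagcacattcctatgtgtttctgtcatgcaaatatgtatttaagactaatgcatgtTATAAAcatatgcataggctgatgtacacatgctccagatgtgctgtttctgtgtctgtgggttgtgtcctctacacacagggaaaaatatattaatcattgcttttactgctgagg
Col6a1: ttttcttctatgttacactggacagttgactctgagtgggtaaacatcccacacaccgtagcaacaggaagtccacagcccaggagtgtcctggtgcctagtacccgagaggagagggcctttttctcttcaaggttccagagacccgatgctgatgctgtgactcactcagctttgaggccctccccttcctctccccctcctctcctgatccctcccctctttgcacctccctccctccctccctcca
Col6a3: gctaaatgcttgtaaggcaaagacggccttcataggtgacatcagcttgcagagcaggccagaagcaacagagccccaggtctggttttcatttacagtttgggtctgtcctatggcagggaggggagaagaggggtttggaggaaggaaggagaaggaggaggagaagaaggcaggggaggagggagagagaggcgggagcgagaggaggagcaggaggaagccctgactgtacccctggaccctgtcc
Col1a2 held 1 CCAAT and 2 GC boxes, Col3a1 held 1 TATA box, and the windows of Col6a1 and Col6a3 held none of these letters. Over 32851 windows of this length, 33.9% held CCAAT, 32.7% the GC box and 12.4% the TATA box. Among the 38 collagen windows the shares were 34.2%, 57.9% and 13.2%. A match describes the letters only.

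The change from day 0 was not the same in every line. edgeR's quasi-likelihood test of the line by day 0 interaction called 8 of 22 collagens, and 45.5% of all 12224 genes. All 3 type IV chains tested were called, 5 of 11 other collagens and 0 of 8 fibrillar chains. The 8 called were also all the collagens with an unadjusted p under 0.05, so 0 fibrillar chains had one, and no other tool was run on this term. The share of collagens called was below that of all genes.

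Line 19 set the type IV chains apart. Its 2 samples at day 0 had Col4a1 levels of 136 and 164.5 CPM, its 3 at day 6 had 44.9, 56.3 and 99.6, and its 3 at day 10 had 50.6, 26.2 and 35.2. In line 15 Col4a1 was 110 and 103 at day 0 and 87.8, 78.4 and 130 at day 10. The interaction had an adjusted p of 0.00119, and the later change of line 19 differed from that of line 15 by -1.33 on the log2 scale. For Col4a2 the same difference was -1.53 (adjusted p = 0.000189).

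Col4a5 went in opposite directions. In line 19 it was 69.4 and 84.4 at day 0 and 37.9, 38.6 and 47.7 at day 6. In line 18 it was 27.7 at day 0 and 45.8, 35.7 and 49.3 at day 6, and in line 15 it went from 25.5 and 25.9 to 32.6, 25.7 and 42.4. The adjusted p of the interaction was 3.9e-06. Col18a1 was higher after day 0 in all lines but by different amounts (adjusted p = 2.89e-06): its day means went from 52.4 to 177 in line 15 and from 141 to 213 in line 24 between day 0 and day 16. Line 18 had 1 sample at day 0, so its change rests on that sample.

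With day in the model, 20 of the 22 collagens tested were called between the 4 lines by edgeR's quasi-likelihood test, near the 80% of all genes. The other 22 did not pass the count filter. The samples of a line with letters other than C share a library of that line alone, and the part of the library in this comparison was not tested. Col6a1 and Col7a1 were the 2 not called (adjusted p = 0.133 and 0.212). Col5a3 had the smallest p (adjusted p = 9.92e-15), with line means of 23.1, 12.1, 1.87 and 4.75 CPM in lines 15, 18, 19 and 24. Col1a1 followed with 29.9, 198, 418 and 59.8 (adjusted p = 3.44e-13). Col11a1 had 0.874, 2.56, 7.61 and 6.12 (adjusted p = 1.97e-12). Col1a2 had 47.4, 64.4, 95.9 and 147 (adjusted p = 6.14e-11), so the line with most Col1a2, line 24, was not the line with most Col1a1, line 19.

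Between Mif KO and control samples, 10 of 20 collagens were called higher and 3 lower in line cells by edgeR's quasi-likelihood test with day in the model. Of all 11746 genes, 26% were called higher and 23.6% lower. The median log2 fold change was 0.25 for the collagens and 0.01 for all genes. Fibrillar chains were higher in 6 of 8 cases and lower in 1, type IV chains higher in 1 of 3 and lower in 1, and other collagens higher in 3 of 9 and lower in 1. Without Mif KO line 24 the split was 6 higher and 7 lower, with a median of -0.12, beside 21.2% and 23.3% of all genes. Line is nested in group, so a difference between lines and an effect of Mif cannot be told apart here. With 1 sum per line, 2 against 2, edgeR's quasi-likelihood test called 0 of 28 collagens, 6 had an unadjusted p under 0.05, and the smallest adjusted p was 0.623. It called 0% of all 15075 genes there, of which 1173 had an unadjusted p under 0.05. An exact permutation test over 4 line means cannot go under 0.333, two-sided. The 2 clusters with the most line cells differed between the groups: clusters 13 and 4 held 27.7% and 15.5% in line 15 and 22.4% and 21.2% in line 18. In line 19 clusters 6 and 5 held 25.3% and 23.7%, and in line 24 clusters 3 and 14 held 48.5% and 26.9%. The fibroblast markers summed to 367 to 758 CPM in the controls (median 625.1) and 373 to 688 in the Mif KO samples (median 449), and of 6 tested 0 were higher and 1 was lower. The endothelial markers summed to 170 to 439 (median 314) and 240.4 to 545 (median 345), and 3 of 5 tested were higher. The part of these markers in the result was not tested.

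Of the 13 called, both Mif KO lines were above both control lines in their means over samples for Col11a1, Col1a2, Col5a2, Col18a1, Col4a5 and Col8a1, and below both for Col5a3, Col16a1 and Col4a2. For Col8a1 the line means of 179 in line 24 and 178 in line 18 were nearly level. So were those of Col4a5, 52.7 and 52.6 in lines 19 and 24 and 51.6 in line 18. Col18a1 had 140 in line 19 and 137 in line 15. Col11a1 lay between 0.149 and 5.08 CPM in the controls (median 1.13, n = 21) and between 2.85 and 19.96 in the Mif KO samples (median 5.62, n = 21), with 13 of 21 Mif KO samples above every control. Its log2 fold change was 1.98 ± 0.27 (adjusted p = 1.24e-07), and 1.27 without control line 15. Col1a2 lay between 27.1 and 113 in the controls (median 51.7) and between 65.7 and 189 in the Mif KO samples (median 108), a change of 1.15 ± 0.14 (adjusted p = 9.57e-09). In 10 of 21 Mif KO samples Col1a2 was above every control sample.

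Col5a3 had the largest fall of the 3 collagens called lower. The controls lay between 3.38 and 42.3 CPM (median 16.6) and the Mif KO samples between 0.153 and 8.28 (median 2.62), with 12 of 21 below every control. The log2 fold change was -2.47 ± 0.28 (adjusted p = 3.58e-09). The Mif KO line means were 1.87 in line 19 and 4.75 in line 24. In line 19 the C samples, from a mixed library shared with line 15, had 4.30, 3.19 and 5.69 CPM at days 6, 10 and 16. Its other samples reached at most 1.55, and the UMIs per cell given below pool all its samples. The part of the library in this was not tested. Over all T-cell-like cells Col5a3 stood at 2.005 CPM (median over samples 0, highest 65.1), and over all macrophage/monocyte-like cells at 2.30. By CPM, line 19 was thus not above the immune background. Per cell, its line cells had 0.0235, 0.0148 and 0.0273 Col5a3 UMIs at days 6, 10 and 16. Its T-cell-like cells had 0.00197, 0.00284 and 0.00217, and its macrophage/monocyte-like cells 0.00437, 0.008 and 0.0121. In line 24 the 6 samples of days 10 and 16 lay between 4.92 and 8.28. Col5a2 rose by 0.74 ± 0.12 (adjusted p = 2.39e-06), so chains of type V again went apart. Col16a1 fell by 0.59 (SE 0.15, adjusted p = 0.00128). Without control line 18 Col16a1 had -0.43 (adjusted p = 0.0628), and without Mif KO line 19 it had -0.22 (adjusted p = 0.226), while without Mif KO line 24 it had -1.01. Col4a2 fell by 0.50 (SE 0.13, adjusted p = 0.00227), with -0.25 without Mif KO line 19 and -0.76 without Mif KO line 24. Col5a2 had 0.44 without control line 15.

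For Col1a1, Col3a1, Col5a1 and Col6a2 the group call rested on single lines. Col1a1 had a log2 fold change of 1.65 ± 0.46 (adjusted p = 0.00328), and without Mif KO line 19 it was -0.27 (adjusted p = 0.666). Without control line 15 it was 0.74 (adjusted p = 0.313), without control line 18 it was 3.03 and without Mif KO line 24 it was 2.50. Col3a1 had 1.14 ± 0.30 (adjusted p = 0.00181), with 0.38 without control line 15 (adjusted p = 0.366) and 0.50 without Mif KO line 24 (adjusted p = 0.156). It was 2.07 without control line 18 and 1.72 without Mif KO line 19. Col5a1 had 0.53 ± 0.14 (edgeR adjusted p = 0.00135). It had 0.30 without control line 15 and 0.13 without Mif KO line 24 (adjusted p = 0.182 and 0.382). Col6a2 had 0.55 ± 0.22 (edgeR adjusted p = 0.0307). It had 0.36 without control line 15 and -0.12 without Mif KO line 24 (adjusted p = 0.346 and 0.673).

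In the mixed libraries alone, 6 control against 6 Mif KO samples, 0 of 19 collagens were called by edgeR's quasi-likelihood test and 6 had an unadjusted p under 0.05, beside 2.89% of all genes called higher and 1.54% lower. Col5a3 had -1.67 there (adjusted p = 0.0528) and Col11a1 1.39 (adjusted p = 0.0941). With library as a term over all samples 5 of 20 collagens were called: Col5a3 at -1.67, Col11a1 at 1.37, Col1a2 at 0.80, Col16a1 at -0.68 and Col18a1 at 0.35. Of all genes 8.39% were then called higher and 5.94% lower. When all cells of the gate were kept, Col1a1 had 0.37 and Col1a2 0.33 (adjusted p = 0.175 and 0.103), and Col5a3 had -1.07.

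In fibroblast-like cells 5 of 20 collagens were higher in the Mif KO tumours and 3 were lower. Of all 5166 genes tested there, 10.1% were called higher and 10.5% lower by edgeR's quasi-likelihood test. The median log2 fold change was 0.07 for the collagens and -0.01 for all genes. Of 7 fibrillar chains 2 rose, of 11 other collagens 3 rose and 3 fell, and neither of the 2 type IV chains was called. The comparison held 17 control and 16 Mif KO samples of days 6, 10 and 16, with 20 to 177 cells and 119012 to 1406948 UMIs each.

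Col15a1, a multiplexin of the basement membrane zone, separated the groups completely. It lay between 8.11 and 116 CPM in the controls (median 40.3) and between 161 and 686 in the Mif KO tumours (median 327). All 16 Mif KO samples were above all 17 controls, and the line means were 46.0, 48.0, 243 and 507 in lines 15, 18, 19 and 24. The log2 fold change was 3.01 ± 0.26 (adjusted p = 8.14e-11), 8.08-fold. At 1000 UMIs per cell, a Col15a1 UMI was seen in 4.28% and 4.90% of fibroblast-like cells in lines 15 and 18 and in 22.1% and 33.1% in lines 19 and 24.

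Col14a1, which coats fibrils, lay between 0 and 51.0 in the controls (median 14) and between 23.3 and 202 in the Mif KO tumours (median 67.3), with 11 of 16 above every control. It rose by 2.10 ± 0.34 (adjusted p = 1.27e-05). Col8a1 rose by 1.43 ± 0.18 (adjusted p = 1.64e-07), from 36.0 to 221 (median 75.7) to 118 to 413 (median 246). Col3a1, among the most abundant collagens of these cells, rose by 0.87 ± 0.13 (adjusted p = 5.36e-06). Its controls lay between 1394 and 4951 CPM (median 2935) and its Mif KO samples between 3567 and 8336 (median 5171), with 10 of 16 above every control. Col1a1 and Col1a2 did not pass the test, with -0.26 ± 0.11 and 0.09 ± 0.12 (adjusted p = 0.108 and 0.642).

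Col7a1, which forms the anchoring fibrils between epidermis and dermis, fell. The controls lay between 54.2 and 1038 (median 542) and the Mif KO tumours between 0 and 447 (median 78.9), a log2 fold change of -1.95 ± 0.32 (adjusted p = 1.52e-05). In 11 of 17 control samples Col7a1 was above every Mif KO sample. Col18a1 fell by 1.07 (SE 0.18, adjusted p = 2.86e-05), from a median of 219 to 117, while its relative Col15a1 rose. With 1 sum per line Col18a1 had -0.98 (adjusted p = 0.0946), and without Mif KO line 19 it had -0.57. Col12a1 fell by 0.83 (SE 0.22, adjusted p = 0.00525), from a median of 2159 to 1214. Without control line 15 Col12a1 had -0.73 (adjusted p = 0.13), without Mif KO line 24 it had -0.43 (adjusted p = 0.06), and without Mif KO line 19 it had -1.55. Col5a2 had 0.30 ± 0.10 (adjusted p = 0.0289), and without control line 15 or Mif KO line 19 its call was lost (0.26 and 0.37, adjusted p = 0.263 and 0.0564).

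**Figure D5:**
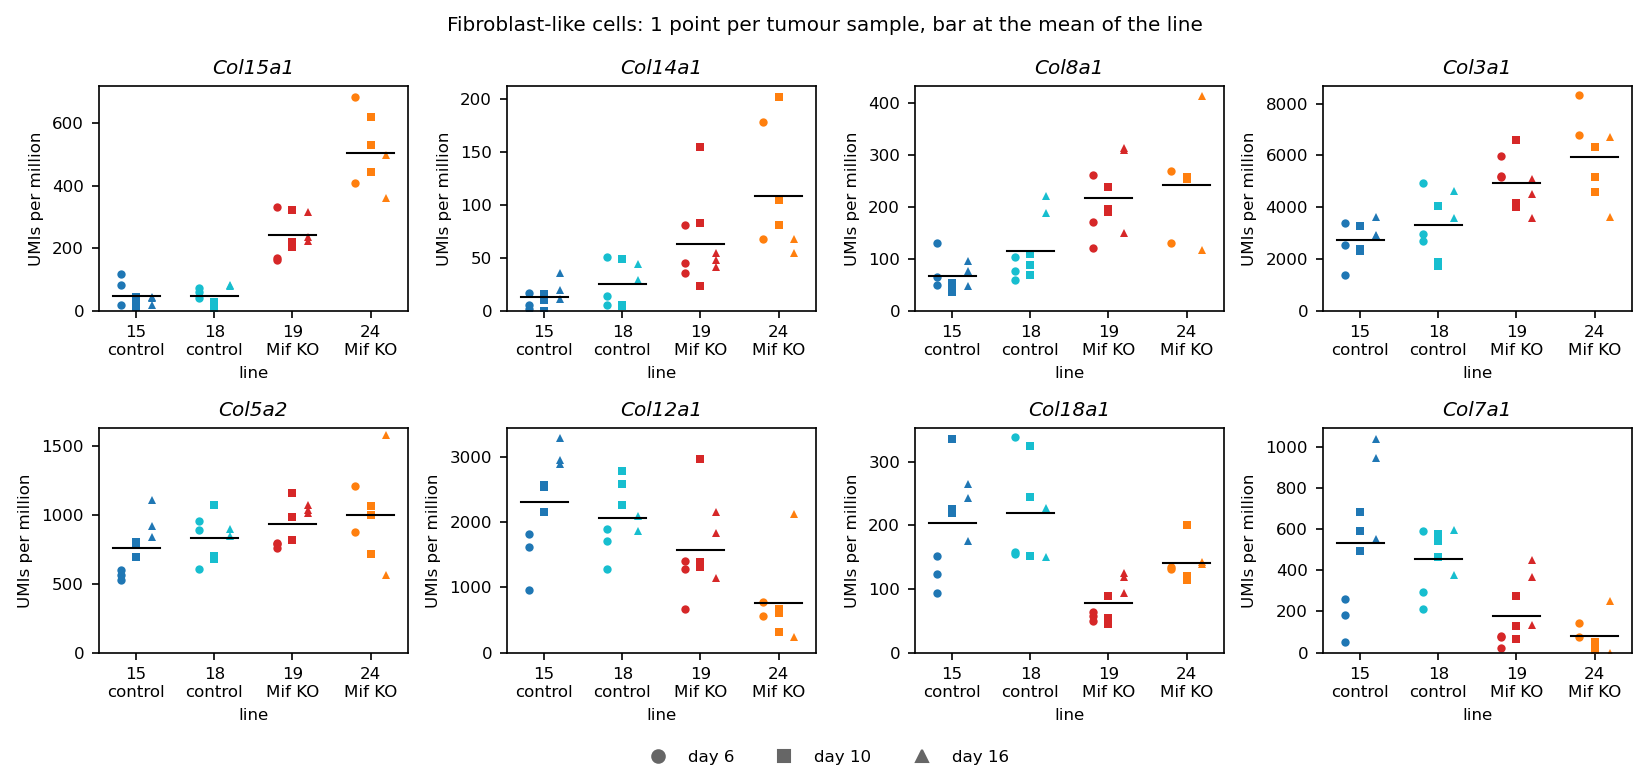
Levels of 8 collagens in fibroblast-like cells of each line, in CPM, with 1 point per sample, a bar at the line mean and marker shapes for the day. The Mif KO lines 19 and 24 lie above both control lines for Col15a1 (means 243 and 507 against 46.0 and 48.0) and below them for Col7a1 (178 and 80.7 against 533 and 457).

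Line is nested in group in these cells too, so a difference between lines and an effect of Mif cannot be told apart. With 1 sum per line, edgeR's quasi-likelihood test called 6 of 26 collagens: Col15a1 at 3.07, Col14a1 at 2.19, Col8a1 at 1.47, Col3a1 at 0.88, Col7a1 at -2.13 and Col6a6 at -2.43. Of all 11366 genes, 2.01% were called higher and 1.77% lower with these sums. In the mixed libraries alone 7 of 21 were called, beside 3.26% of all genes called higher and 3.12% lower. Col15a1 had 3.31 there (adjusted p = 5.13e-06), Col7a1 -2.76 (adjusted p = 0.000312) and Col12a1 -1.28 (adjusted p = 0.000795). Col5a2 had 0.10 in the mixed libraries, 0.14 with library as a term and 0.26 with samples of at least 10 cells (adjusted p = 0.767, 0.74 and 0.0761).

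The markers of fibroblasts and of other cells moved beside these collagens. Of 10 fibroblast markers 9 were tested, 5 were higher in the Mif KO tumours (Mfap5 by 2.14, Clec3b by 1.74, Serping1 by 1.01, Gsn by 0.60 and Dpt by 0.58) and 4 were lower (Dcn by -0.75, Lum by -0.67, Pdgfra by -0.62 and Fbln1 by -0.42). Their sum lay between 4978 and 9517 CPM in the controls and between 4189 and 8146 in the Mif KO tumours. The 12 endothelial markers summed to 72.7 to 182 (median 132) in the controls and 144 to 348 (median 225) in the Mif KO tumours, with Flt1 and Eng called higher. The means of this sum were 130.8 and 226.6, against 6773 in endothelial-like cells. Pecam1, Cdh5, Cldn5 and Tie1, which define endothelium, together reached means of 3.2 and 7.35 CPM, against 1601 in endothelial-like cells. The mural markers summed to 8.25 to 251 (median 82.0) and 29.6 to 235 (median 44.1). The part of fibroblast make-up in the collagen differences was not tested.

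Endothelial-like cells were too few for the planned test: 2 control samples and 1 Mif KO sample had 20 of them. With samples of at least 10 cells, 13 control and 7 Mif KO, 4 collagens could be tested and 0 were called by edgeR's quasi-likelihood test, with 0 at an unadjusted p under 0.05. Col4a1 had a log2 fold change of -0.37 ± 0.20 (adjusted p = 0.85), Col4a2 -0.29 ± 0.24 and Col18a1 -0.10 ± 0.20. Col15a1, which stood out in fibroblast-like cells, had 0.12 ± 0.26 in endothelial-like cells (adjusted p = 0.987). The difference between the cell classes was not tested. No sample held more than 29 endothelial-like cells.

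Genes that make, bind or accompany collagens were read from 3 lists. Of the 29 genes for collagen biosynthesis and crosslinking, 25 were tested from day 0 to day 6, and 9 rose and 5 fell, beside the 24% and 26.5% of all genes. Loxl1, a crosslinking oxidase, rose by 1.52 ± 0.35, Adamts14, a procollagen protease, by 0.94 ± 0.13, and Plod2, a lysyl hydroxylase, by 0.89 ± 0.11. P3h3, a prolyl 3-hydroxylase, fell by 0.41. From day 6 to day 16, 9 rose and 3 fell, beside 21.6% and 17.6% of all genes, with Loxl1 at 1.07 ± 0.23 and the prolyl 4-hydroxylase subunits P4ha2 and P4ha1 at 0.66 each. P4ha1 went from a mean of 102 CPM at day 6 to 167 at day 16. Pcolce2, an enhancer of procollagen processing, fell by 0.64.

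Between the groups, 8 of 23 tested biosynthesis genes were higher in Mif KO line cells and 4 lower, beside 26% and 23.6% of all genes. Line is nested in group for these lists too, and with 1 sum per line 0 genes of any list were called in line cells, since 0 of 15075 genes were. Loxl1 had 1.69 ± 0.36 and Loxl3, another oxidase of this family, 0.79 ± 0.07, from a mean of 40.8 to 70.5 CPM. In fibroblast-like cells 6 of 25 were higher and 3 lower, beside 10.1% and 10.5% of all genes. The lists were not tested there with 1 sum per line. Lox, the founding lysyl oxidase, rose by 1.24 ± 0.12, from 186 ± 48.5 CPM in the controls to 434 ± 110 in the Mif KO tumours (SD, n = 17 and 16). Pcolce2 rose by 1.20 ± 0.22 and Plod2 by 0.98 ± 0.13, while Adamts14 fell by 1.05 and Adamts2, which trims procollagens, by 0.58.

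Of 8 collagen receptors, 7 were tested over the days in line cells. Itga10, an integrin chain that binds collagen, rose by 0.87 ± 0.22 from day 0 to day 6 and by 1.07 ± 0.16 from day 6 to day 16. Itga1, another such chain, rose by 0.57 ± 0.13 in the second interval. The receptor kinase Ddr2 fell by 0.18 in the first. Between the groups Ddr2 was the 1 receptor called of 5 in line cells (0.35 ± 0.06), and Itga1 and Ddr2 were called higher among 4 in fibroblast-like cells (0.73 ± 0.22 and 0.42 ± 0.13). The shares of all genes called are those given for the biosynthesis list, and counts this small are not read against them.

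Of 15 basement membrane partners of type IV collagen, 10 were tested over the days. From day 0 to day 6, 5 rose and 3 fell: the laminin chain Lamc1 rose by 0.82 ± 0.09 and the proteoglycan Hspg2 by 0.57 ± 0.08, while nidogen Nid2 fell by 1.45, Lamb2 by 0.55 and Agrn by 0.48. The shares of all genes were 24% and 26.5%. From day 6 to day 16, 7 of the 10 partners rose and 1 fell, beside 21.6% and 17.6% of all genes. Lama4 rose by 1.58 ± 0.27, Nid2 by 0.52 ± 0.17 and Lama5 by 0.46 ± 0.08, and Lamb3 fell by 0.75. Between the groups 4 of 9 were higher in Mif KO line cells, beside 26% of all genes, led by Lama4 at 3.97 ± 0.79, with 1.62 ± 2.49 CPM in the controls and 22.9 ± 24.6 in the Mif KO samples (SD, n = 21 each). In fibroblast-like cells 3 of 7 were higher, beside 10.1% of all genes, Lama2 by 1.28 ± 0.24, Hspg2 by 0.30 ± 0.07 and Lamb1 by 0.29 ± 0.10.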

How the data were processed

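Raw UMI counts per gene and hashtag, deposited by the authors as 1 matrix per library, came from Cell Ranger 6.0.0 on mm10, per the submitters' processing notes. Cells needed at least 300 genes and at most 15% mitochondrial UMIs. Hashtags were called with HTODemux (Seurat 5.3.0), hashtag doublets (17.9% to 30.9% of cells) were removed, and 2 of 47 hashtags under 0.1% of a library's hashtag counts were left out. Clustering with scanpy 1.11.5 (2000 variable genes, 30 components, 23 clusters) left out the collagens. Counts were summed per sample and class, with at least 20 cells. edgeR 4.0.16 (filterByExpr, TMM, quasi-likelihood, Benjamini-Hochberg over all genes, threshold 0.05) was the test, with line in the day models and day in the group models, and the SE is the size of the log2 fold change divided by the square root of F. DESeq2 1.42.0 was an alternative. The scripts were tested on simulated data. Collagens were named by a rule: the 10 highest in line cells, the 6 highest in fibroblast-like and endothelial-like cells, and up to 5 largest called changes each way per comparison, with up to 3 each way for the lists. Others were chosen after their values were seen. A gene of the lists that this rule names is not reported here. The members and lists were chosen with earlier results of these data known.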

Additional observations from a re-analysis of the deposited data

Results flagged for a closer look

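Among 106 groups of 4 to 10 samples, 4 held a sample far from the others, and chance flags about 1 in 20 groups. All 4 values were from control line 18. In line cells, sample C had 96.6 CPM of Col1a2 at day 10, with the nearest other control at 54.6, and 104 of Col5a1 at day 16, with the nearest at 63.0. In fibroblast-like cells, sample C had 6437 of Col1a2 at day 10 beside 4715, and sample A had 1311 of Col6a2 at day 6 beside 697.

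The change from day 0 to later days differed between lines for 8 collagens by edgeR's quasi-likelihood test of the interaction. The adjusted p was 2.89e-06 for Col18a1, 3.9e-06 for Col4a5, 0.000189 for Col4a2, 0.00119 for Col4a1, 0.00476 for Col16a1, 0.00534 for Col8a1, 0.00676 for Col6a1 and 0.0257 for Col6a3.

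The 3 WT samples, which are in no labelled group, were set beside the highest control sample of the same day for the 10 highest collagens of line cells. Of these 30 values 14 were above it and 16 were not, and these differences were not tested. Col1a2 was above at each day, with 80.3 CPM against 39.4 at day 6, 113.5 against 96.6 at day 10 and 153 against 113 at day 16. Col8a1 was also above at each day, with 189 against 177, 220.2 against 202 and 205 against 203. At day 6, Col1a1 had 73.8 against 58.5, Col3a1 64.7 against 64.5, Col18a1 153 against 138, Col6a1 113.5 against 112, Col6a3 52.2 against 36.5 and Col5a1 52.7 against 38.9. Col6a3 had 119.8 against 116 at day 10, and Col6a1 had 180.2 against 172 at day 16.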

How the results depend on the processing

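Of 67 values recomputed for the main results, 61 stayed within 1.5 times the reported count or within the replicate spread, and 6 did not. Of the 13 collagens called between Mif KO and control in line cells, edgeR's quasi-likelihood test called 0 with 1 sum per line, 5 with library as a term and 0 in the mixed libraries alone. Keeping all cells of the Ptprc and Tyrobp gate gave 20 calls from day 0 to day 6 against 12, and a summed collagen level of 2159 CPM against 1404. Without a count filter 14 collagens were called in fibroblast-like cells against 8. Leaving out each line in turn gave 11 to 13 calls for Mif KO against control, 12 to 14 from day 0 to day 6, 14 to 18 from day 6 to day 16 and 6 to 8 in fibroblast-like cells. The shares of all genes are not given beside these counts or the one without a filter, so they are not read as results about collagens. They also hide direction: without Mif KO line 24 the split between higher and lower changed, as given above. Col1a1 between Mif KO and control went from 1.65 to -0.27 without Mif KO line 19, and ranged from -0.27 to 3.03 when each line was left out in turn. Of the values recomputed for single collagens, 350 were graded the same, 45 weaker and 1 reversed, the reversal just named. Another 4, shares of cells with a UMI, moved when cells were thinned. Signs turned elsewhere too. Col6a2 between Mif KO and control went from 0.55 to -0.12 without Mif KO line 24. With all cells of the gate, Col1a2 went from 0.44 to -0.25 from day 6 to day 16, and from -0.39 to 1.36 from day 0 to day 6. The cause of these changes was not tested. The libraries of 1 line each alone, and the alternatives of the line by day interaction, were chosen after seeing the data. No paired analysis was possible because the labels' replicate numbers are line numbers, which the control and Mif KO groups do not share. The mixed libraries hold lines of both groups, and the fit with library as a term uses that. Depth limits the endothelial-like cells, where the planned test had too few samples with 20 cells. By the share of thinned cells with a UMI, Col1a1 in lines 15 and 24 was not distinguishable from T-cell-like background. By CPM, Col5a3 in Mif KO line 19 was not above that background. In UMIs per cell, each of these was above T-cell-like cells of the same line and day from day 6 on. For Col1a1 the smallest of these margins was in line 15 at day 6 (0.196 against 0.145). No T-cell-like background was measured at day 0.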

Other observations

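In the fibroblast-like cells of the 3 WT samples, Col15a1 had 67.0 CPM at day 6, 95.4 at day 10 and 499 at day 16. Col14a1 had 14.6, 12.3 and 94.9, and Col7a1 had 133, 317 and 230.3 on the same days. Each is 1 sample, with no replicate. The WT mean of Col15a1 was 220, beside 46.0, 48.0, 243 and 507 in lines 15, 18, 19 and 24. That of Col14a1 was 40.6, beside 13.1, 25.3, 62.9 and 108, and that of Col7a1 was 227, beside 533, 457, 178 and 80.7. These differences from WT were not tested.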
